A study of Rattus norvegicus with 8 samples.

Results

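Semaphorins, their plexin and neuropilin receptors and the CRMP proteins that relay their signal were followed in rat hippocampal neurons in which Sirt6, the gene of a nuclear NAD-dependent deacetylase, was knocked down. The members are every non-control array probe whose gene name in the files is a semaphorin (Sema and a digit), a plexin (Plxn), Nrp1, Nrp2, Crmp1 or Dpysl2 to Dpysl5. This name rule took 46 of 45598 probes, for 36 of 35901 named genes: 20 semaphorins, 9 plexins, 2 neuropilins and 5 CRMPs. Of these genes 33 were measured. Sema3d, Sema3g and Plxnb3 each had 1 probe that was not well above background on any of the 8 arrays, so no fold is given for them.

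Semaphorins are secreted or membrane-bound proteins that steer axons and dendrites and shape synapses. Plexins are their transmembrane receptors and carry an intracellular domain that inactivates small Ras-family GTPases, while most class 3 semaphorins are held to plexins by a neuropilin. CRMPs bind tubulin in the growth cone and couple semaphorin 3A to the microtubules, and in the hippocampus the system is known for its part in laying out dendrites, mossy fibres and spines.

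Cells came from Wistar rats of postnatal day 0 to 1 and were infected on day 3 in culture with lentivirus at a multiplicity of infection of 6. RNA was collected after another 7 days, at day 10 in culture. A scrambled shRNA was carried by 4 samples and an shRNA against Sirt6 by the other 4, each array measuring 1 sample in 1 colour. Each arm rested on 1 shRNA as far as the labels name it, and all 8 samples were infected and kept in the same medium. Whether replicates stem from different cultures or litters is not given in the labels, so each p-value speaks for the scatter of these 4 and 4 samples, part or all of which may be technical.

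The probes that carry the main points below are shown as the files give them, 5′ to 3′ in the sense of the messenger RNA, with rn4 positions. Plxnb2 is the member with the largest fall, and its probe lies at chr7:127457928-127457987 on the minus strand. Sema3a, Nrp1 and Sema4b are members whose probes gave different calls, and for each of them 1 probe is shown: chr4:17575223-17575282 (minus) for Sema3a, a span of 492 bases at chr19:58482301-58482792 (plus) for Nrp1, and chr1:136023636-136023695 (plus) for Sema4b. Which exon each lies in was not analysed here.
Plxnb2 probe: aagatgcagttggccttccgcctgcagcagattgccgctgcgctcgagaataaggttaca
Sema3a probe: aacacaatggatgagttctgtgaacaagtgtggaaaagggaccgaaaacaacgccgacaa
Nrp1 upstream probe: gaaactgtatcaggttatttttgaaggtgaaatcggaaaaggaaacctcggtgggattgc
Sema4b upstream probe: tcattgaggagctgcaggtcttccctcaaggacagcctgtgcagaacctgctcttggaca

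Levels are log2 signals relative to the 75th percentile of the same array, so a level of 0 is a bright probe and negative levels are dimmer; a level ranks arrays for 1 probe and does not rank genes. Changes are Sirt6 shRNA minus scrambled shRNA on that log2 scale, with the standard error (SE), n = 4 arrays per group. A gene was called when limma's Benjamini-Hochberg adjusted p, taken over all 22593 genes measured, was under 0.05. A gene with several probes is represented by the brightest.

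Sirt6 itself stood at 2.10, 2.04, 2.02 and 2.06 with the scrambled shRNA and at 0.55, 0.58, 0.50 and 0.46 with its own shRNA. The fall of 1.53 ± 0.040 (SE, adjusted p = 5.55e-06) left 34.6% of the scrambled level. Each array had 60.4% to 65.3% of its probes well above background, with no saturated probe, and profiles correlated across probes at r = 0.9954 to 0.9975 within a group and 0.9912 to 0.9935 between groups. All arrays shared 1 slide, with the scrambled samples in row 1 and the Sirt6 shRNA samples in row 2, so row and group cannot be told apart.

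All 10 neuron markers examined were measured. Their summed level, as multiples of the array's 75th percentile, was 132.5 to 137.4 with scrambled shRNA and 133.8 to 149.3 with Sirt6 shRNA. Of these markers 4 rose, among them Nefm by 0.35 and Tubb3 by 0.32, and 1 fell (Stmn2 -0.22). Markers of other cells were also present and some moved with the group (changes in log2 are given for the largest and for some others). Over all genes tested, 30.4% were called. Among measured markers the share was 80% for astrocytes, 71.4% for mural cells and 66.7% for fibroblasts and meninges. It was 50% for neurons and 40% for the oligodendrocyte lineage. For endothelial cells (33.3%), microglia (30%) and proliferation (30%) it was near that of all genes. Of 10 astrocyte markers 7 fell (S100b -1.42) and 1 rose (Gjb6 1.15), with summed levels of 326.7 to 358.8 against 233.9 to 257.0. S100b, with a mean level of 6.21 against 4.79, had the largest share of that difference, and Slc1a2 (-0.17) and Sox9 (-0.08) were uncalled. Of 7 measured mural markers 5 rose and none fell, Pdgfrb (-0.07) and Notch3 (0.12) being uncalled. The largest rises were Tagln (2.14) and Abcc9 (1.18), the latter well above background on only 2 of the 4 control arrays. The mural sums were 7.75 to 8.17 against 15.99 to 18.8. Tagln, with a mean level of 1.27 against 3.41, made most of that difference. Cspg4, a rise of 0.23, stands in both the mural and the oligodendrocyte list. Oligodendrocyte lineage markers gave 3 falls (Mbp -1.31, though 0.03 on its other probe, and Olig1 -0.37) and 1 rise of 10, with sums of 48.2 to 53.3 against 42.9 to 44.8, and microglial markers 3 falls of 10 (Tmem119 -0.89, P2ry12 -0.68), with 34.0 to 48.1 against 24.1 to 48.4. Fibroblast and meningeal markers gave 4 rises (Slc6a13 0.53, Col1a2 0.36, Col3a1 0.33, Col1a1 0.20) and 2 falls (Fmod -1.97, Mgp -1.72) of 9. Their sums were 30.6 to 34.9 against 28.1 to 30.4. Mgp, with a mean level of 3.27 against 1.55, had the largest share of the scrambled sum. Proliferation markers gave 3 rises of 10 (Nusap1 0.62, Top2a 0.61), with 3.13 to 3.62 against 3.52 to 5.27. Endothelial markers gave 1 rise (Kdr 0.41) and 1 fall (Egfl7 -0.30) of 6, with 4.47 to 5.04 against 4.45 to 5.24, and Cldn5, Emcn, Esam and Flt1 were not well above background, nor were the mural markers Des, Kcnj8 and Rgs5 or the fibroblast marker Lum. Semaphorins and plexins are made by glia and vascular cells as well as by neurons; the part of these cells in the results below was not tested, and fewer cells of a type cannot be told apart from less RNA per cell.

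The second Sirt6 shRNA sample stood apart in part of these markers: it was the highest of its group for 9 of 10 microglial and 9 of 10 proliferation markers. Its microglial sum was 48.4 against 24.1 to 28.8 in the other knockdown samples, and its proliferation sum 5.27 against 3.52 to 3.75. The second scrambled sample was likewise the highest of its group for 9 of 10 microglial markers, with a sum of 48.1 against 34.0 to 42.3. For proliferation markers it was the highest for 3 of 10. Without the second Sirt6 shRNA sample 13 members were called, Sema3a and Dpysl2 losing their call and Sema3e gaining one. The changes of Sema5a and Sema3b were then 0.93 and -0.58. Among the called members, the same sample was the knockdown sample nearest to the controls for Sema5a, Sema3b, Sema4f, Sema4g, Sema6c and Plxnb1.

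Among the 33 measured members, 9 rose and 5 fell with the Sirt6 shRNA. The rises were Sema5a, Sema4f, Sema4g, Sema6c, Nrp1, Plxna2, Plxna3, Plxnc1 and Dpysl2, and the falls were Plxnb2, Sema3b, Sema3a, Plxnb1 and Crmp1. The 14 calls are 42.4% of the measured members, beside 30.4% of all genes tested (15.6% called higher and 14.8% called lower). The 4 arrays of one group lay wholly above or below the 4 of the other for 14 members, beside 33.4% of all genes. The median change was 0.07 over the members and 0.021 over all genes, and the median absolute change 0.14 in both. Of the called members only Sema5a passed 1.5-fold (not with normexp background correction), a size that 4.43% of all genes reached together with a call. Counted by probe instead of by gene, 14 of 43 member probes were called (32.6%), beside 28.4% of all probes.

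**Figure D1:**
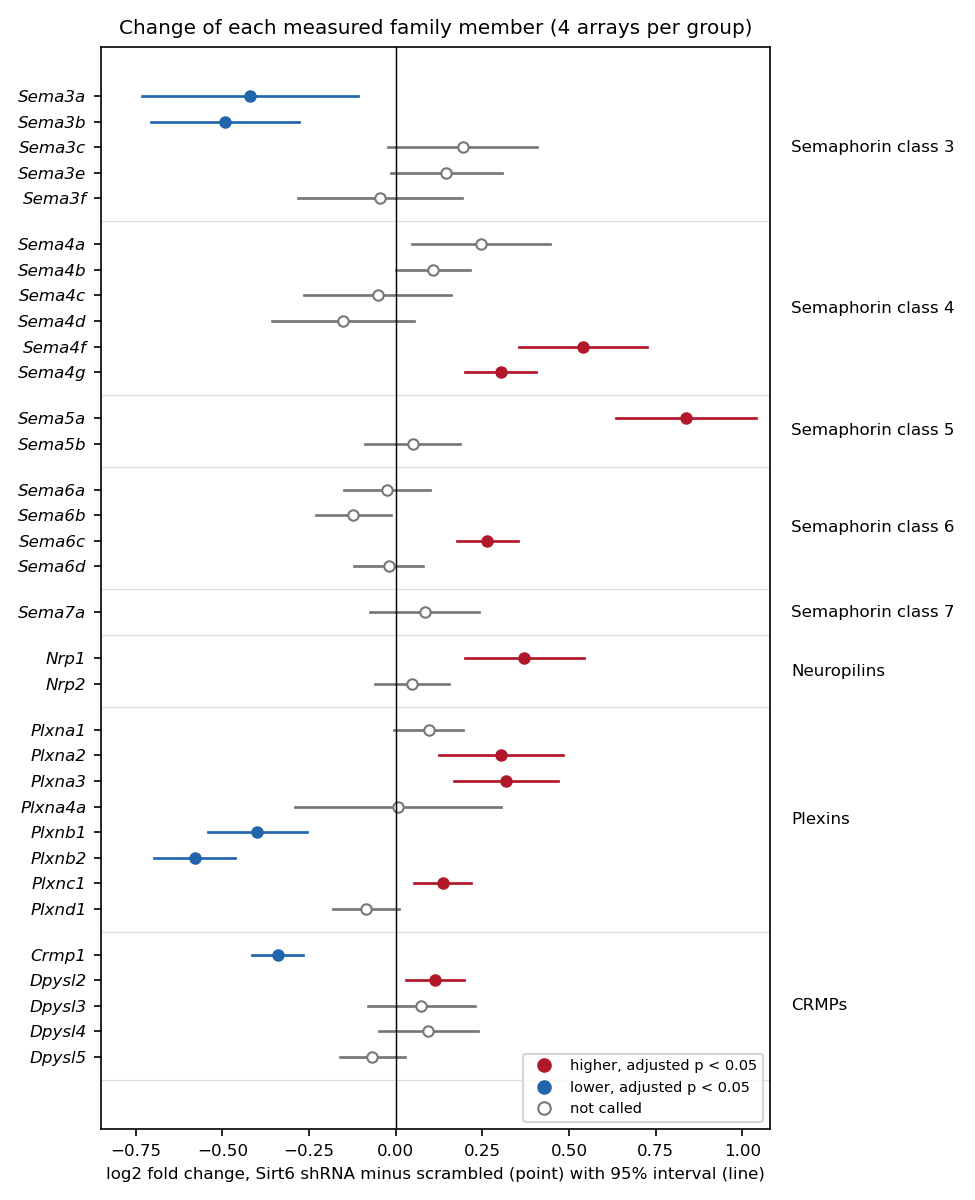
Change of each of the 33 measured members on the log2 scale (horizontal axis, Sirt6 shRNA minus scrambled shRNA; points are estimates, bars 95% confidence intervals), grouped by role. Rises and falls are mixed within the system: all calls among class 3 ligands and B-type plexins are falls, while Sema5a, at 0.84, lies farthest to the right.

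The secreted class 3 semaphorins, which repel or attract axons through neuropilins, had 5 measured members, of which Sema3b and Sema3a fell and none rose (40.0% called, beside 30.4% of all genes). Sema3b, which acts mainly through neuropilin 2, stood at 0.12, 0.063, 0.066 and 0.15 with the scrambled shRNA and at -0.49, -0.12, -0.57 and -0.40 with the Sirt6 shRNA. The groups did not overlap, although the second Sirt6 shRNA sample lay nearest to the controls. The change was -0.49 ± 0.092 (SE, adjusted p = 0.00562), a 1.41-fold fall, at chr8:112845710-112845769 on the minus strand.

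Sema3a, the founding collapsin that repels axons and promotes dendrite growth, gave levels of -3.42, -3.65, -3.36 and -3.75 against -3.76, -3.92, -3.86 and -4.31. It was dim, and the groups were parted by a gap smaller than their own spread. The change of -0.42 ± 0.13 (SE) reached an adjusted p of 0.0482, and the call was lost when scrambled sample 1, 2 or 3 or Sirt6 shRNA sample 2, 3 or 4 was left out (adjusted p = 0.0718 to 0.110). Its other probe, at chr4:17566796-17566855, stood at -4.07, -4.13, -4.48 and -4.21 against -4.49, -3.94, -4.18 and -4.53. There the groups overlapped and the change was -0.06 ± 0.15 (SE, adjusted p = 0.783). The fall of Sema3a was thus called on the probe printed above only; it was 0.14 with normexp background correction, and the mean of both probes changed by -0.24 (adjusted p = 0.127).

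The other class 3 members were not called. Sema3c changed by 0.19 (95% confidence interval -0.02 to 0.41), Sema3e by 0.15 (adjusted p = 0.152) and Sema3f, the main neuropilin 2 ligand in hippocampal wiring, by -0.05 (adjusted p = 0.771). Without scrambled sample 1 Sema3c was called (0.28, adjusted p = 0.0148), and without Sirt6 shRNA sample 2 Sema3e was (0.21, adjusted p = 0.0252), both as rises.

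The class 4 to 7 semaphorins, most of which are anchored in the membrane, had 13 measured members, of which 4 rose and none fell; these 30.8% match the 30.4% of all genes called. Sema5a, a transmembrane ligand with thrombospondin repeats that is known for limiting synapse formation, rose most of all members. It stood at -2.59, -2.64, -2.65 and -2.59 with the scrambled shRNA and at -1.75, -2.06, -1.66 and -1.67 with the Sirt6 shRNA. The lowest knockdown sample, the second, was still well above every control. The rise of 0.84 ± 0.087 (SE, adjusted p = 0.000377) was 1.79-fold and was read at chr2:85157412-85157470 on the plus strand. With normexp background correction it was 0.41, still called but under 1.5-fold. Its relative Sema5b changed by 0.05 and was not called.

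Sema4f, a class 4 ligand found at glutamatergic synapses, stood at -0.72, -0.57, -0.51 and -0.43 against -0.046, -0.17, 0.015 and 0.12. Every knockdown sample was above every control, and the rise of 0.54 ± 0.080 (SE, adjusted p = 0.00194) was 1.45-fold. Its probe lies at chr4:117105351-117105410 on the minus strand.

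Sema4g, a less studied class 4 ligand, stood at -0.37, -0.46, -0.43 and -0.43 against -0.13, -0.21, -0.055 and -0.083. The controls were tightly grouped below all knockdown samples, and the rise was 0.30 ± 0.045 (SE, adjusted p = 0.0019), or 1.23-fold.

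Sema6c, a transmembrane ligand of A-type plexins, stood at -1.41, -1.42, -1.35 and -1.36 against -1.14, -1.17, -1.10 and -1.06. The rise was 0.26 ± 0.038 (SE, adjusted p = 0.00174), or 1.20-fold, and 0.14 with normexp background correction. It is the member whose other probe was called in the same direction, at 0.30 ± 0.078 (SE, adjusted p = 0.0221). The remaining class 6 genes were not called: Sema6a changed by -0.03, Sema6b by -0.12 (adjusted p = 0.0835) and Sema6d by -0.02 (95% confidence interval -0.12 to 0.08).

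Sema4b, a membrane ligand with a tail that binds postsynaptic scaffolds, was not called on its brightest probe, at 1.55, 1.39, 1.41 and 1.37 against 1.52, 1.56, 1.53 and 1.54. That change was 0.11 ± 0.047 (SE, adjusted p = 0.12), with overlap through the first control, and without that sample it was called (0.15, adjusted p = 0.0205), as was the mean of both probes (0.26, adjusted p = 0.0164). The upstream probe printed above, 7544 bases away, stood at -3.67, -3.79, -4.05 and -3.74 against -3.34, -3.26, -3.49 and -3.52. It was higher in all knockdown samples, by 0.41 ± 0.096 (SE, adjusted p = 0.0148). The change of the brightest minus that of the upstream probe was -0.30, with an exact permutation p of 0.0286, the smallest that 4 against 4 arrays can give, and 0.286 after adjustment over the 10 probe pairs compared.

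Of the other class 4 and 7 genes, Sema4a changed by 0.25 (95% confidence interval 0.05 to 0.45, adjusted p = 0.0658), Sema4c by -0.05 and Sema4d, a plexin B ligand that drives inhibitory synapse assembly, by -0.15 (adjusted p = 0.232). Sema7a, the lipid-anchored member that binds Plxnc1 and integrins, changed by 0.08. None of these was called, but Sema4a was called when scrambled sample 2 was left out (0.31, adjusted p = 0.0259) and under 4 other settings, among them normexp background correction (0.25, adjusted p = 0.0183).

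Of both neuropilins, which hold class 3 semaphorins and vascular endothelial growth factor at the cell surface, Nrp1 rose and Nrp2 was not called. Nrp1, the receptor subunit for Sema3a, stood at 1.46, 1.27, 1.24 and 1.23 with the scrambled shRNA and at 1.57, 1.78, 1.58 and 1.76 with the Sirt6 shRNA on a probe at chr19:58487606-58487665 on the plus strand. The first control stood apart from the other controls and came closest to the knockdown samples. The rise was 0.37 ± 0.074 (SE, adjusted p = 0.00753), or 1.29-fold.

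The upstream Nrp1 probe printed above, 5305 bases away, stood at -0.27, -0.44, -0.27 and -0.30 against -0.050, -0.26, 0.0075 and -0.28. Here the groups overlapped, and the change of 0.18 ± 0.079 (SE, adjusted p = 0.134) was not called. The changes at both probes differed by 0.19, with an exact permutation p of 0.286. Nrp2 changed by 0.05 on its brightest probe and by 0.16 on each of the other 2, with none called.

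**Figure D2:**
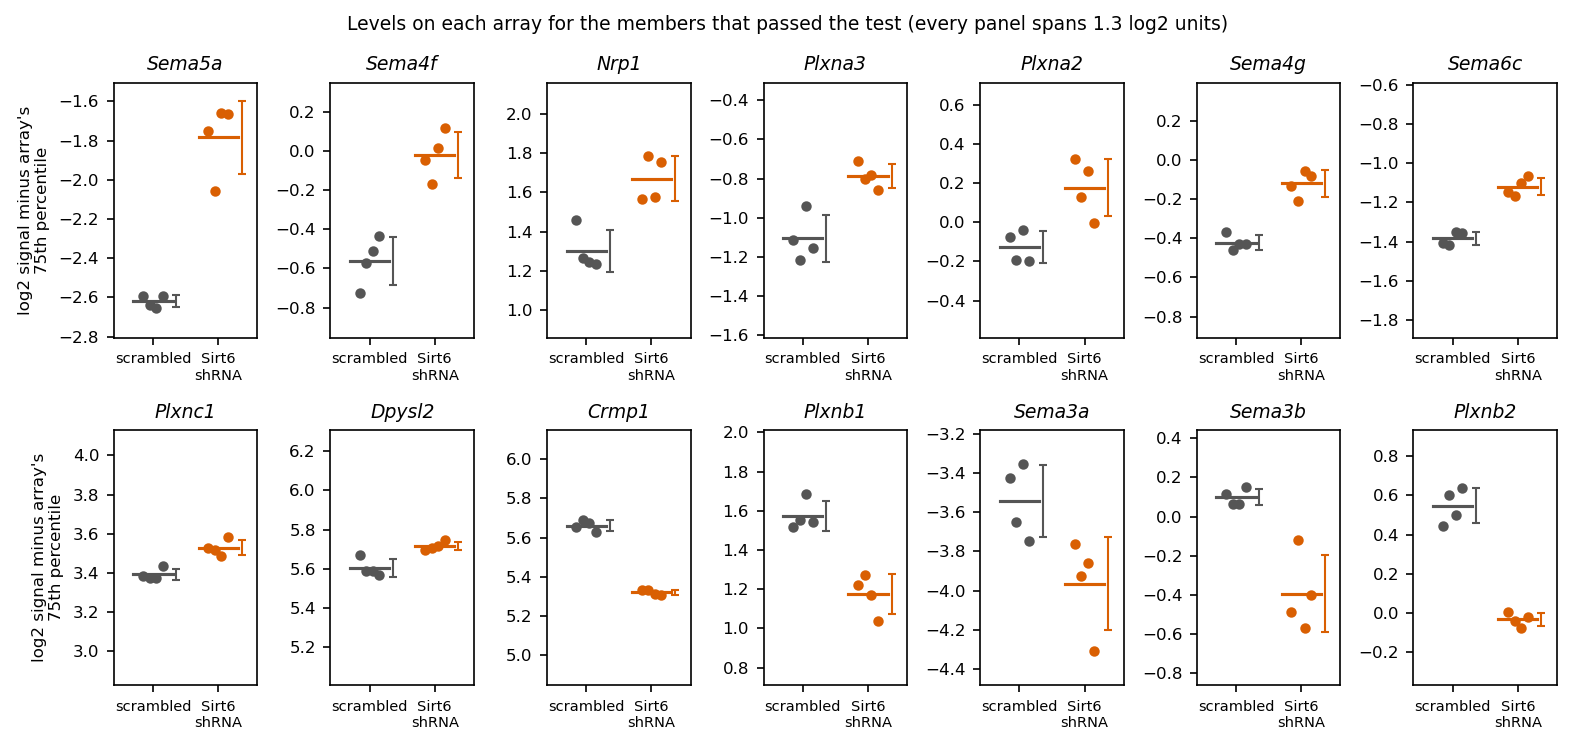
Level of each called member in every array (vertical axis, log2 relative to the array's 75th percentile; 1 point per array, lines the mean and bars the SD of 4 arrays). The groups do not overlap for any of these genes; the gap is wide for Sema5a and Plxnb2 and narrow for Sema3a, Plxna2 and Dpysl2.

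Of 8 measured plexins, Plxna2, Plxna3 and Plxnc1 rose while Plxnb1 and Plxnb2 fell, 62.5% called beside 30.4% of all genes. Both measured B-type plexins, the receptors of class 4 semaphorins that activate RhoA through PDZ-RhoGEF and LARG, fell, and of the 4 A-type plexins 2 rose and 2 were not called; no test compared the types.

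Plxnb2, an abundant receptor of neural progenitors and glia as well as neurons, stood at 0.45, 0.60, 0.50 and 0.64 with the scrambled shRNA and at 0.0062, -0.041, -0.074 and -0.023 with the Sirt6 shRNA. The knockdown samples lay within 0.1 of each other and far below all controls. The fall of 0.58 ± 0.051 (SE, adjusted p = 0.000175) was 1.49-fold.

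Plxnb1, the classic Sema4d receptor, stood at 1.52, 1.56, 1.68 and 1.54 against 1.22, 1.27, 1.17 and 1.04. The groups were clearly apart, and the fall was 0.40 ± 0.062 (SE, adjusted p = 0.00246), or 1.32-fold, at chr8:114133447-114133506 on the plus strand. Of 3 further probes that the files list under a transcript name matched here to Plxnb1, outside the name rule, 2 were well above background on at most 1 array; the third was so on all 4 control arrays and on no knockdown array, so its levels give no change here. With the kept probes of the gene averaged, which adds that one, the change was -0.71.

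The A-type plexins are the signalling partners of neuropilins and of class 6 semaphorins. Plxna2, the Sema6a receptor that guides mossy fibres, stood at -0.077, -0.19, -0.041 and -0.20 against 0.32, 0.13, 0.26 and -0.0036. The last knockdown sample came within a short distance of the controls, and the rise was 0.30 ± 0.078 (SE, adjusted p = 0.0212). Leaving out scrambled sample 2 or 4, or Sirt6 shRNA sample 1 or 3, moved the adjusted p to between 0.0501 and 0.0587.

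Plxna3, which serves Sema3f signalling in hippocampal axon pruning, stood at -1.11, -1.22, -0.94 and -1.15 against -0.71, -0.80, -0.78 and -0.86. All knockdown samples were higher, by 0.32 ± 0.065 (SE, adjusted p = 0.0083), or 1.25-fold. The other A-type receptors were not called: Plxna1 changed by 0.10 (adjusted p = 0.134) and Plxna4, listed in the files as Plxna4a, by 0.0057 (95% confidence interval -0.29 to 0.30).

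Plxnc1, the Sema7a receptor, stood at 3.39, 3.37, 3.38 and 3.43 against 3.53, 3.52, 3.49 and 3.58. The groups were narrow and apart, but the rise was only 0.14 ± 0.036 (SE, adjusted p = 0.0235), and its call was lost without scrambled sample 1, 2 or 3 or Sirt6 shRNA sample 1 or 4 (adjusted p = 0.0502 to 0.0640) and when each array was centred on its median (adjusted p = 0.236). Plxnd1, the Sema3e receptor, changed by -0.08 (adjusted p = 0.159).

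For ligand and receptor pairs, the members can be set side by side gene by gene. Sema3a fell while its binding subunit Nrp1 rose, each called on its brightest probe only. Sema4d changed by -0.15 without a call while its receptor Plxnb1 fell. Sema7a was not called while its receptor Plxnc1 rose, and Sema3e and its receptor Plxnd1 were both uncalled. No test compared the genes of a pair, and RNA levels say nothing of the amount of protein at the surface.

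The intracellular CRMPs had 5 measured members, of which Crmp1 fell and Dpysl2 rose (40.0% called, beside 30.4% of all genes). Crmp1 stood at 5.65, 5.69, 5.67 and 5.63 with the scrambled shRNA and at 5.33, 5.33, 5.31 and 5.31 with the Sirt6 shRNA. Both groups scattered less than those of any other measured member, with all 4 knockdown samples within a few hundredths of each other. The gap between the groups was wider for Plxnb2 and Sema5a. The fall of 0.34 ± 0.032 (SE, adjusted p = 0.000224) was 1.27-fold, on a probe at chr14:79076387-79076446 on the minus strand, and it was not called after scaling on spike-in RNA (adjusted p = 0.0629).

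Dpysl2, the gene of CRMP2, which promotes microtubule assembly and axon growth, stood at 5.67, 5.59, 5.59 and 5.57 against 5.70, 5.70, 5.72 and 5.75. The first control almost reached the knockdown samples, and the rise was 0.11 ± 0.036 (SE, adjusted p = 0.0499). It lost its call when any sample other than the first control was left out (adjusted p = 0.0755 to 0.118) and with median centring (adjusted p = 0.379). Its other probe, at 1.22, 1.33, 1.34 and 1.28 against 1.27, 1.28, 1.41 and 1.35, overlapped between groups and changed by 0.04 ± 0.047 (SE, adjusted p = 0.605). The remaining CRMP genes were not called, with changes of 0.07 for Dpysl3, 0.09 for Dpysl4 and -0.07 for Dpysl5.

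**Figure D3:**
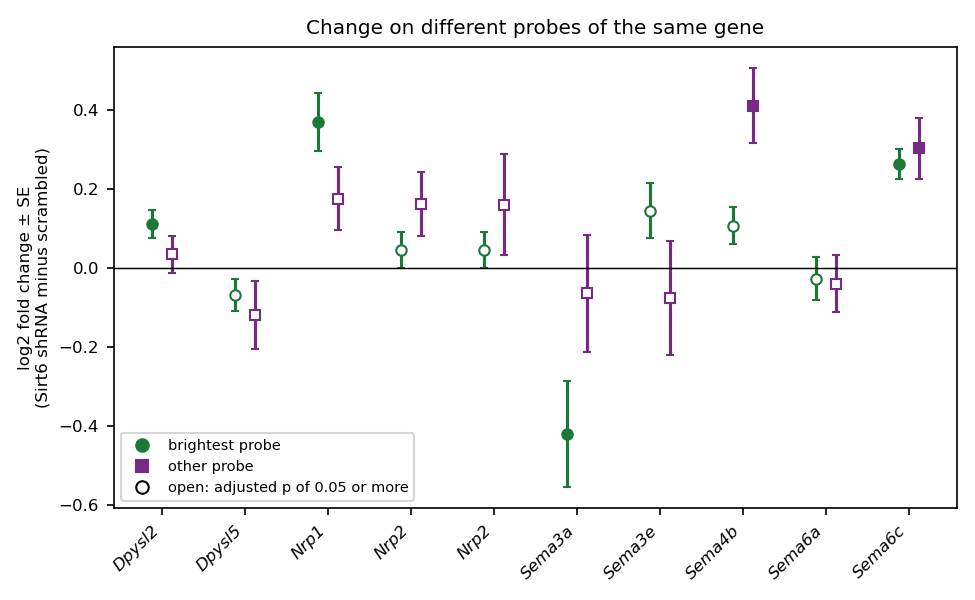
Change read by the brightest probe and by each other probe of the 9 members with several probes (vertical axis, log2, Sirt6 shRNA minus scrambled shRNA; circles the brightest probe, squares the other, bars SE, filled where called). Nrp2 appears with 2 pairs because it has 3 probes; Sema6c is called on both of its probes, while Sema3a, Sema4b, Nrp1 and Dpysl2 are called on 1 of 2.

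Among the 10 pairs of probes of 1 gene, 4 differed in their call, and 1 pair, for Sema3e, differed in sign with neither probe called. The within-array difference between both probes of Sema4b was the only one of the 10 with an exact permutation p under 0.05. The p was 0.171 for Sema3a and 0.229 for Dpysl2. Those tests were added after the values had been seen.

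Upstream sequence was available for 27 of the 36 members from RefSeq (GRCr8), taking 250 bases before the start. Of the 5 called members with the largest changes, only Plxnb2, which fell, and Sema4f, which rose, were listed, and both are shown. Capitals mark a GC box, GGGCGG or its reverse complement CCGCCC, the sequence bound by Sp-family factors. Plxnb2 lies at chr7:122137949-122138198 and Sema4f at chr4:116995443-116995692, both on the minus strand.
Plxnb2 promoter: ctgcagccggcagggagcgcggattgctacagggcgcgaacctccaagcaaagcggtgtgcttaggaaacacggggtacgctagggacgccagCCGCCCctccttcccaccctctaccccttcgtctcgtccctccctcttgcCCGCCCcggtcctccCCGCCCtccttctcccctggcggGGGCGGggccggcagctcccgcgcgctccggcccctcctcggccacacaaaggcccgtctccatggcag
Sema4f promoter: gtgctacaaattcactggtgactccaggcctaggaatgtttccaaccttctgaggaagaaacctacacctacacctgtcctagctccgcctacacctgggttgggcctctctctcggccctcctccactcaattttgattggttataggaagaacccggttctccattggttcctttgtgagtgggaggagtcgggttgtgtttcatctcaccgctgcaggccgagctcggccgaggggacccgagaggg

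The Plxnb2 window held 4 GC boxes and 71.6% G and C, and the Sema4f window held none and 55.6%, beside a median of 51.2% over 33469 promoters of the same length. A GC box on either strand was found in 17 of the 27 members listed (63.0%) and in 6 of the 9 called ones, beside 30.5% of all promoters. Those 6 were Crmp1, Plxnb1 and Plxnb2, which fell, and Plxna2, Plxna3 and Plxnc1, which rose. The core ACGTG, which may overlap other motifs, was found in 6 of 27 members (22.2%) and 16.6% of all promoters. The cyclic AMP element TGACGTCA, in 1.59% of all promoters, and the NF-kB element, in 0.0956%, were found in no member window. These letter matches describe the windows and show no binding.

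Downstream of the receptors, 47 of 48 listed effector genes were measured, of which 7 rose and 10 fell (36.2% called, beside 30.4% of all genes). The median change was 0.045. The list holds small GTPases, their exchange factors, PAK and LIM kinases, MICAL oxidases and actin regulators that act below plexins.

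Farp1, a RhoGEF-family FERM protein that works with SynCAM and plexin A4 in dendrites and synapses, fell most among the called effectors. It stood at 3.73, 3.63, 3.61 and 3.71 against 2.86, 3.00, 2.88 and 2.89, a fall of 0.77 ± 0.048 (SE, adjusted p = 4.81e-05). Pak2, a p21-activated kinase, fell by 0.56 ± 0.098 (SE, adjusted p = 0.00433). Rac1, the GTPase that drives lamellipodia and spine growth, fell by 0.40 ± 0.080 (SE, adjusted p = 0.00767), and its other probe by 0.37.

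Rnd1, which binds the plexin cytoplasmic domain and opens it for ligand response, stood at -1.25, -1.29, -1.25 and -1.37 against -1.67, -1.69, -1.72 and -1.62. It fell by 0.39 ± 0.043 (SE, adjusted p = 0.000493). Rhod, another plexin-binding GTPase, fell by 0.37 ± 0.039 (SE, adjusted p = 0.000425). Arhgef12, the gene of LARG, a RhoA exchange factor that B-type plexins recruit, fell by 0.34 ± 0.074 (SE, adjusted p = 0.0118), while Arhgef11, the gene of its partner PDZ-RhoGEF, rose by 0.22. The other rises were Farp2, Pak3, Pak1, Nck2, Rras and Mras, from 0.15 to 0.33, and the other falls Mical2, Msrb1, Rap1b and Limk2, from -0.28 to -0.13. After spike-in scaling only 5 effectors were called. These calls rest on the brightest probe of each gene. The other probes of Limk2 (-0.14 to -0.05) and Arhgef11 (0.15) were not called. Mical3 and Gsk3b were not called on their brightest probes (0.19 and 0.06), but another probe of each was (-0.54 for Mical3).

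Of 16 co-receptor genes 13 were measured, of which 2 rose and 2 fell (30.8%, beside 30.4% of all genes); 7 were called when the second Sirt6 shRNA sample was left out. Kdr, a receptor of vascular endothelial growth factor that pairs with neuropilins and plexins and also marks endothelium, rose by 0.41 ± 0.079 (SE, adjusted p = 0.00615). Met, the hepatocyte growth factor receptor that couples to B-type plexins, rose by 0.25 ± 0.037 (SE, adjusted p = 0.00174). Itga1, the integrin chain reported as part of the Sema7a receptor, stood at 0.86, 0.79, 0.72 and 0.68 against 0.27, 0.28, 0.11 and 0.13 and fell by 0.56 ± 0.061 (SE, adjusted p = 0.000447), with falls of 0.88 and 0.83 on its other probes. Erbb2, a receptor kinase that binds plexin B1, fell by 0.15 ± 0.033 (SE, adjusted p = 0.0128). Flt1 and Mst1r were not well above background. Cntn2 and Flt4 were not called on their brightest probes (0.11 and -0.22), but the other probe of each was (0.43 and -0.61). Trem2 and Tyrobp, partners of plexin A1 in cells of the immune lineage, changed by -0.61 and -0.36 without a call; Tyrobp is also one of the microglial markers.

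**Figure D4:**
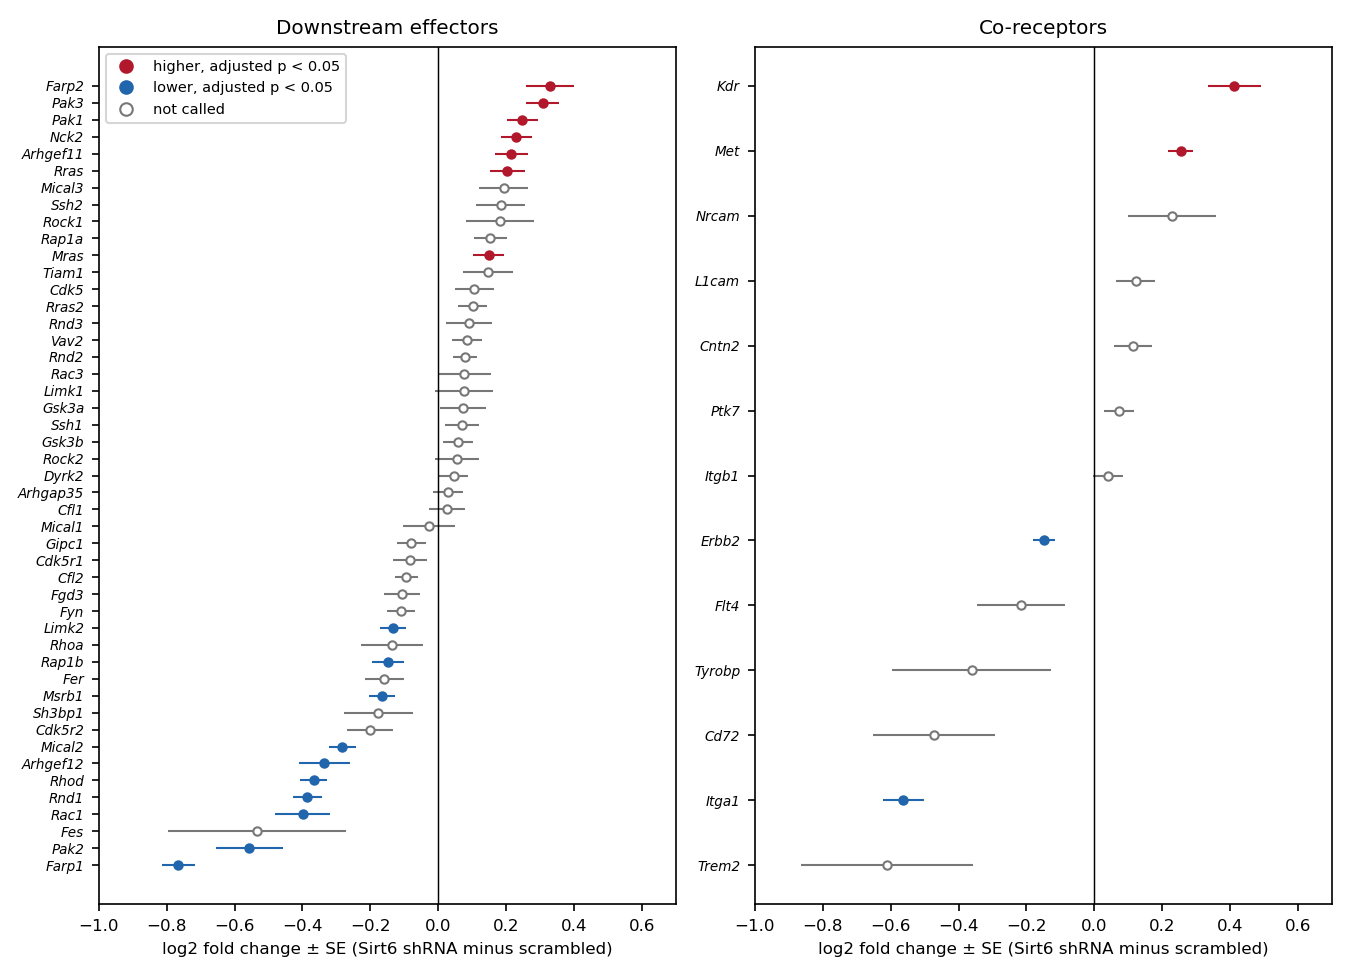
Change of the 47 measured effector and 13 measured co-receptor genes (horizontal axis, log2, Sirt6 shRNA minus scrambled shRNA; points estimates, bars SE, filled where called). Farp1 lies farthest to the left at -0.77 and Kdr farthest to the right at 0.41; called rises and falls stand in both lists, and the widest bars belong to uncalled genes such as Trem2 and Fes.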

How the data were processed

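The authors deposited scanner output of 8 one-colour arrays: per the file headers, spot intensity values were read and background-subtracted by Agilent Feature Extraction 11.5.1.1 (also named in the submitters' processing notes), with flags for outlier spots and for signal well above background. The authors' deposited log2 table equalled the log2 processed signal minus 1 constant per array, within an SD of 0.0029, with column medians of -3.70 to -3.59; it served as an alternative. Probe coordinates in the files are of build rn4.

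Control and outlier spots were left out, spots of a probe were averaged in log2, and each array's 75th percentile over 45598 probes was subtracted. Probes well above background on at least 4 of 8 arrays were kept (28620), and the brightest probe stood for each of 22593 genes, named through RefSeq (GRCr8; names only). The comparison was fitted in R 4.3.3 by limma 3.58.1 (lmFit, eBayes, two-sided), Benjamini-Hochberg adjusted over all genes; other probes of a member were adjusted over all kept probes. The number of arrays limits the precision. The fit was tested on simulated data.

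Every member is named; called members and members whose probes disagree are given by array. From the effector and co-receptor lists up to 6 and 4 called genes of largest change are given with their error, from each marker list up to 2. The other called effectors and the further marker genes were named after their values were seen. The members, the lists and the promoters shown were chosen with earlier results of these data known.

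Alternatives were normexp background correction (offset 50), quantile normalization, median centring, scaling on 7 spike-in probes, the authors' log2 values, 16 added before log2, other limits for dim probes, averaging over a gene's probes, every probe, array weights, trended and robust eBayes, a replicate block, and leaving out each array. Slide was not used as a block, since all arrays shared 1. Same-numbered samples of both groups deviated together at r = 0.033 to 0.160, over 0.1 in 2 of 4 pairs. Differently numbered samples gave r = -0.221 to 0.120. These values do not settle whether the numbers pair the samples. The main fit used no pairing, and the replicate block was an alternative.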

Additional observations from a re-analysis of the deposited data

Results flagged for a closer look

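In the 66 sets of 4 arrays examined (33 members in each group), 2 members had 1 array far from the other 3; chance gives about 1 in 20. Nrp1 stood at 1.46 in the first scrambled sample, the others being 1.23 to 1.27. Sema4d stood at 1.18 in the second Sirt6 shRNA sample, the others being 0.87 to 0.92.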

How the results depend on the processing

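Over 21 alternative settings none of the 14 called members changed sign, and 9 kept their call under all of them. The exceptions were Dpysl2, Sema3a, Plxna2 and Plxnc1, which lost it with 7, 6, 4 and 5 of the 8 arrays left out and under 7, 5, 1 and 3 of 13 other settings, and Crmp1, which lost it only with spike-in scaling. Of 19 uncalled members 5 gained a call under some setting: Sema3c, Sema3e, Sema4a, Sema4b and Sema6b. Members called numbered 10 with spike-in scaling (7 higher, 3 lower), 10 with no filter on dim probes (6 higher, 4 lower), 12 with median centring (7 higher, 5 lower) and 16 with normexp background correction (11 higher, 5 lower). Spike-in scaling also gave 3268 genes called in place of 6874 and 5 effectors in place of 17; the cause was not tested. Higher calls were 51.3% of all calls over all genes, 35.2% with median centring and 64.0% with spike-in scaling. Leaving out 1 array at a time gave 11 to 14 called members (6 to 10 higher, 4 to 5 lower), 5312 to 6590 called genes, 14 to 18 effectors, 4 to 7 co-receptors (7 without the second Sirt6 shRNA sample) and a Sirt6 change of -1.55 to -1.51. With the replicate number as a block, 13 members were called (8 higher, 5 lower), 6425 genes, 17 effectors and 6 co-receptors, and Dpysl2 lost its call (adjusted p = 0.103); 2 of 4 scrambled samples correlated best with their own number. Sema3d, Sema3g and Plxnb3 were too dim for a fold.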
